A study of Mus musculus with 9 samples.

Results

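The cerebellum is wrapped in the meninges, membranes whose fibroblasts lay down a collagen-rich matrix, and 10 genes that mark these fibroblasts or their matrix were followed in mouse cerebellum. They are Col1a1, Col1a2, Col3a1, Dcn, Lum, Aldh1a2, Islr, Igf2, H19 and Slc6a13, taken by their gene symbol from the deposited tables. Each symbol had 1 row, so 10 of 53924 rows with a gene name were used, and all 10 passed the filter on low counts that left 16634 genes to test. Total RNA was sequenced from 9 libraries, 3 from control mice given saline, 3 from mice given 3-acetylpyridine (3AP) and 3 from mice given 3-acetylpyridine after PLX3397 (PLX3AP). 3-Acetylpyridine is a nicotinamide analogue that destroys inferior olive neurons and causes ataxia, and PLX3397 inhibits the CSF1 receptor, a survival signal of microglia and other macrophages. Both treated groups received 3-acetylpyridine, and mice given PLX3397 alone were not analysed here. The sources used here give no strain, age, dose or time, and do not state whether 1 animal stands behind each library. The p-values therefore describe the scatter of these libraries, part of which may be technical.

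Fibrillar collagens are built from chains that wind into a triple helix, type I from the products of Col1a1 and Col1a2 and type III from that of Col3a1, and both types give tissue its tensile strength. Decorin (Dcn) and lumican (Lum) are small leucine-rich proteoglycans that bind collagen fibrils and set their diameter. Aldh1a2 makes retinoic acid in the meninges, Islr is a secreted or membrane-bound leucine-rich repeat protein of stromal cells, and Slc6a13 (GAT2) carries GABA and taurine across the meningeal barrier. Igf2, a growth factor, and H19, a long noncoding RNA, are imprinted neighbours. Many tissues express them from opposite parental chromosomes, and the parental origin of the reads was not measured here. In the brain, leptomeninges, vessels and choroid plexus are the known sources of Igf2, and mural cells of vessels also make collagens.

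In GRCm38 (mm10) coordinates of GENCODE M21, Dcn lies on chromosome 10 from 97479609 to 97518143 and Lum on the same strand from 97565128 to 97572703, with 46985 bases and no annotated gene between them. H19 lies on chromosome 7 from 142575529 to 142578143 and Igf2 from 142650766 to 142666816, both on the minus strand. They are 72623 bases apart, with 1 annotated gene between them. The collagen genes Col1a1 (chromosome 11, 94936224 to 94953042), Col1a2 (chromosome 6, 4504814 to 4541544) and Col3a1 (chromosome 1, 45311538 to 45349706) lie on 3 chromosomes. Aldh1a2 lies on chromosome 9 from 71215789 to 71296243, Islr on chromosome 9 from 58156268 to 58204306, and Slc6a13 on chromosome 6 from 121300227 to 121337733. Whether counting used the strand is not stated in the sources used here. The antisense gene Igf2os, within Igf2, had 2 to 19 counts a library against 2168 to 4327 for Igf2, and Islr2, which overlaps Islr on the same strand, had 17 to 61 against 216 to 390.

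The repeat that makes a collagen chain is visible in the coding sequence, where a GGN codon (glycine) starts each triplet of codons. In GENCODE M21 the longest unbroken run of such triplets held 338 in Col1a1, 339 in Col1a2 and 344 in Col3a1, or 69.8, 74.1 and 70.5% of the codons. The first 90 bases of each run are shown 5′ to 3′, to let the repeat be seen in the 3 chains, with the GGN codons in capitals.
Col1a1: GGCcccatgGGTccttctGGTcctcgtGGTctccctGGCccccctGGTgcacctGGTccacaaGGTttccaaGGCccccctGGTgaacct
Col1a2: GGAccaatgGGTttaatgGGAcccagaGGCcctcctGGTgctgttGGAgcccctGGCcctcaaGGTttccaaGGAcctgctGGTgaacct
Col3a1: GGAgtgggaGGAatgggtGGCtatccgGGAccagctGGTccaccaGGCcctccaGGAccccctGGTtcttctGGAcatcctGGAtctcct
The 3 stretches were set side by side from the start of each run, without alignment. Within these 90 bases Col1a1 and Col1a2 shared 63 bases in place, Col1a1 and Col3a1 45, and Col1a2 and Col3a1 44. The GG of every GGN codon matches by this layout, and the starts of the runs need not correspond between chains. The counts are therefore no measure of how far the chains differ.

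Promoter sequences of 300 bases around the start site came from RefSeq (GRCm38.p6), where 6 of the 10 genes matched, with no entry for Col1a1, Dcn, Lum or H19. Those of Col3a1 and Aldh1a2 are shown because both genes fell in the same comparison below, and that of Col1a2 because it did not pass there. Capitals mark TATAAA and CCAAT and GGGCGG on either strand, with no overlap between them in these windows.
Col3a1, chr1:45311288-45311587, plus strand: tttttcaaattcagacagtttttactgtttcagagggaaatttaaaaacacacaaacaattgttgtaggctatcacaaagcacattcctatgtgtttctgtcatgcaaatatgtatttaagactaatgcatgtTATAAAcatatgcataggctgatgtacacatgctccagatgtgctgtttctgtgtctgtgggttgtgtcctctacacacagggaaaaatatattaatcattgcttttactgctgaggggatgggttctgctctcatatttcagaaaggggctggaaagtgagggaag
Col1a2, chr6:4505368-4505667, plus strand: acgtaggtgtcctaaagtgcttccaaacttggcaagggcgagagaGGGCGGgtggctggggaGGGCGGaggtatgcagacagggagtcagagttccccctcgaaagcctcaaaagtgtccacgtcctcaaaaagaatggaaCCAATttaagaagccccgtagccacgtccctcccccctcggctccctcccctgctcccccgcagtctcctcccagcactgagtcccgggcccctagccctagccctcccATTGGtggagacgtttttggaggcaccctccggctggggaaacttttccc
Aldh1a2, chr9:71215539-71215838, plus strand: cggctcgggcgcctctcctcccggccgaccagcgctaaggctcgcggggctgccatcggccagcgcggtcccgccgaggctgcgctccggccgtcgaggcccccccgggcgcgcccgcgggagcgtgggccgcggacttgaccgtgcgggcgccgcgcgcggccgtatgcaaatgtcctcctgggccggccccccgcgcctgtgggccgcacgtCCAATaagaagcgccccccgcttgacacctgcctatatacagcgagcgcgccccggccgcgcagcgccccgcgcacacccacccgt
The Col3a1 window held 1 TATAAA and neither of the other motifs, with 37.7% G and C and 0 CG dinucleotides. The Col1a2 window held 2 CCAAT and 2 GGGCGG motifs, with 61.0% G and C and 13 CG dinucleotides. The Aldh1a2 window held 1 CCAAT, with 78.0% G and C and 50 CG dinucleotides. Of all 32851 promoter entries of that length 13.6% held TATAAA, 37.4% CCAAT and 35.7% GGGCGG, and the medians were 52.7% G and C and 7 CG dinucleotides. The Col3a1 and Aldh1a2 windows thus lay on opposite sides of these medians, with no motif of the 3 in common. Of the other genes that fell there, Dcn, Col1a1 and H19 had no entry, and a part of the promoters in the fall was not tested.

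Libraries held 18452256 to 22358447 estimated counts, of which the 10 genes made up 0.0201 to 0.0368%. Levels are given as counts scaled to a common library total (CPM) after TMM scaling, and as the authors' length-scaled transcript abundances (TPM) where genes are compared with each other. Cerebellar neuron markers were present, as they should be in the labelled tissue. Their sums over 10 genes were 8305 to 8990 CPM in control, 7465 to 8076 in 3AP and 7848 to 8640 in PLX3AP. Every 3AP sum was below every control sum, while edgeR called 0 of the 10 genes in each comparison. Markers of choroid plexus, the secretory tissue next to the cerebellum, varied widely within every group, with sums over 15 genes of 335.8 to 5400 CPM in control, 958.3 to 2703 in 3AP and 208.7 to 2913 in PLX3AP. Of 10 muscle and bone genes 5 were tested and Ckm was at 0 in all libraries, and their sum was 21.2 to 26.2 CPM. Most of that sum was Dmp1 in control and PLX3AP, with means of 16.6 and 18.4 CPM. Dmp1 reached 430 counts in a library, and no other gene of the list more than 64. In bulk tissue, fewer cells of a type and less RNA per cell cannot be told apart.

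Per length, Igf2 had the highest mean of the 10 genes in all 3 groups, at 109 ± 47.0 TPM in control (mean ± SD, n = 3, as throughout), followed by Dcn at 30.8 ± 3.12. Islr (13.2 ± 2.16), Aldh1a2 (10.7 ± 0.466), Slc6a13 (9.76 ± 1.53) and Col1a2 (9.71 ± 0.883) came next, each within its spread of its neighbour in that order except for Islr and Aldh1a2, whose means lay 1 SD of Islr or more apart. Lum was at 4.48 ± 0.835 TPM, Col1a1 at 3.28 ± 0.526, Col3a1 at 2.51 ± 0.114 and H19 at 1.76 ± 0.307. Transcript levels of the collagens were thus well below those of the proteoglycan Dcn, and Col1a2 was above its type I partner Col1a1 in every library. The ratio of Col1a2 to Col1a1 TPM was 3.24, 2.81 and 2.92 in control, 2.53, 2.43 and 2.38 in 3AP, and 3.21, 3.52 and 3.54 in PLX3AP. All 3AP ratios lay below those of the other groups, a pattern noticed in the data and not tested. In 3AP the means of Igf2 and Dcn were closer, at 97.3 ± 19.2 and 82.6 ± 21.2 TPM. In 3AP replicate 1 Dcn was above Igf2, at 104.6 against 85.6 TPM.

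**Figure D1:**
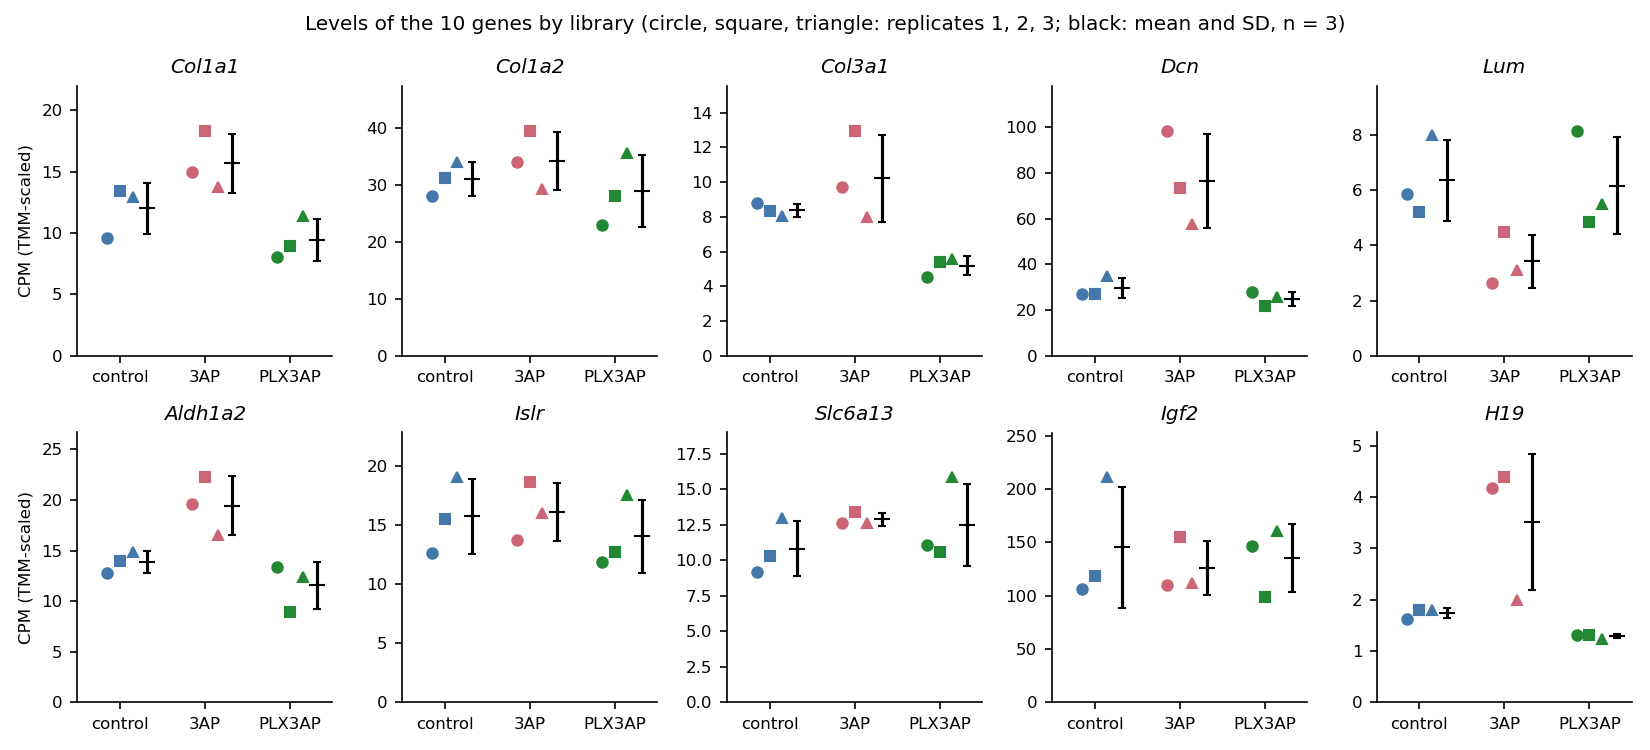
TMM-scaled CPM of the 10 genes in each library by group (control, 3AP, PLX3AP), 1 panel per gene with its own axis from 0, with the mean and SD in black. Dcn is high in all 3 of the 3AP libraries (57.5 to 98.2 CPM) and Lum is low in them (2.65 to 4.48 CPM).

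Whether 3-acetylpyridine changed these genes was read from 3AP against control. Dcn was the 1 gene of the 10 that rose, and the others did not pass, although Col1a1, Aldh1a2 and H19 were also higher in every 3AP library than in any control library. Lum, the neighbour and relative of Dcn, was lower in every 3AP library. EdgeR called 1 of the 10 genes higher and 0 lower (adjusted p under 0.05, Benjamini-Hochberg over 16634 genes), against 4.93% of all tested genes in either direction, 3.75% higher and 1.18% lower. An unadjusted p under 0.05 was reached by 5 of the 10, and the share of all genes at that level was not counted. DESeq2 called 2 of the 10 (Dcn and Lum) and 1062 of the 16634 tested genes. The median log2 fold change was 0.27 against 0.001 for all genes. Groups did not overlap for 4 genes higher and 1 lower, against 13.6% and 11% of all tested genes (24.7% in either direction).

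Whether PLX3397 changed them in mice given 3-acetylpyridine was read from PLX3AP against 3AP. Dcn, Col3a1, Col1a1, Aldh1a2 and H19 fell, and Col1a2, Islr, Igf2 and Slc6a13 did not pass, nor did Lum, which was higher in every PLX3AP library than in any 3AP library. EdgeR called 5 of the 10 lower and 0 higher, against 3.73% of all tested genes in either direction, 3.16% lower and 0.577% higher. The median log2 fold change was -0.48 against -0.008 for all genes. Groups did not overlap for 5 genes lower and 1 higher, against 9.22% and 7.66% (16.9% in either direction). These genes were chosen with earlier results known, so the share is a description. The count was 2 without 3AP replicate 1, without 3AP replicate 2 or without PLX3AP replicate 2, and both remaining calls in each case were Dcn and Col3a1. Calls over all genes in these settings were 401, 479 and 425, in that order.

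PLX3AP against control asks what was left between mice given both agents and mice given saline. EdgeR called 0 of the 10 genes, against 0.12% of all tested genes in either direction, 0.0361% higher and 0.0842% lower. Col3a1 was the 1 gene with an unadjusted p under 0.05, a level whose share over all genes was not counted. DESeq2 called 0 of the 10 against 110 of all tested genes, and limma-trend on the TPM called 0 against 19 and 9. Groups did not overlap for 2 genes lower, Col3a1 and H19, and for 0 higher, against 6.42% and 7.86% of all genes (14.3% in either direction). The 3 comparisons share libraries in pairs, so that a high 3AP level enters both the first and the second.

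**Figure D2:**
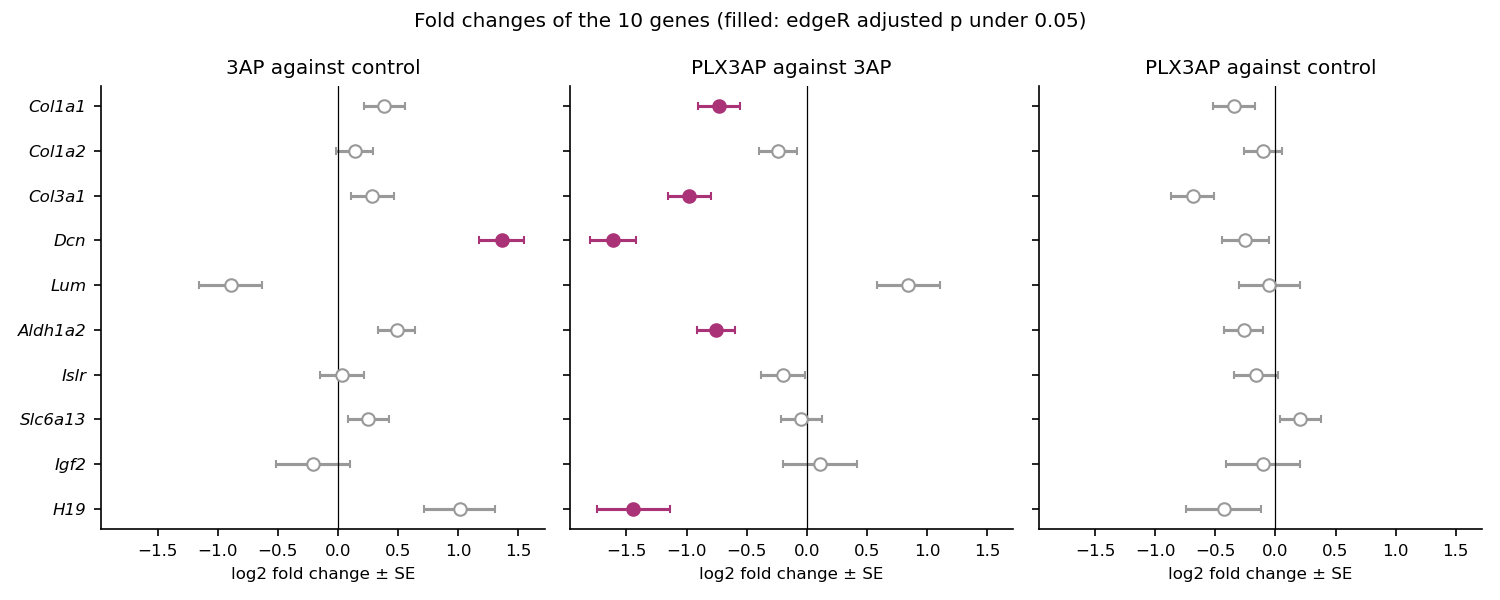
Fitted log2 fold change of each gene with its standard error in the 3 comparisons, with filled points for an edgeR adjusted p under 0.05. Dcn stands to the right of 0 in 3AP against control (1.36) and to the left in PLX3AP against 3AP (-1.61), and Lum does the opposite (-0.89 and 0.84) without passing.

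Of the type I collagen genes, Col1a1, which encodes the α1 chain, was at 9.63, 13.5 and 12.9 CPM in control, 14.97, 18.3 and 13.7 in 3AP, and 8.02, 8.95 and 11.4 in PLX3AP. Its 3AP libraries lay above all others, by a narrow margin over control. The log2 fold change was 0.39 (SE 0.17, edgeR adjusted p 0.269) in 3AP against control and -0.73 (SE 0.17, edgeR adjusted p 0.0322) in PLX3AP against 3AP. The latter call was lost without 3AP replicate 1 (adjusted p 0.0837), 3AP replicate 2 (0.142), PLX3AP replicate 1 (0.0771) or PLX3AP replicate 2 (0.141), and with limma-trend on TPM (0.178 and 0.161). Col1a2, which encodes the α2 chain, was at 28.1, 31.3 and 34.0 CPM in control, 34.0, 39.5 and 29.3 in 3AP, and 23.1, 28.2 and 35.7 in PLX3AP. All 3 groups overlapped, and its log2 fold changes of 0.14 (SE 0.16, adjusted p 0.72) and -0.24 (SE 0.16, adjusted p 0.626) did not pass with edgeR.

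Col3a1, the chain of type III collagen, was at 8.79, 8.32 and 8.04 CPM in control, 9.72, 12.95 and 8.00 in 3AP, and 4.56, 5.42 and 5.58 in PLX3AP. Every PLX3AP library was below every other library, while control and 3AP overlapped. It was 1.97-fold lower in PLX3AP than in 3AP (log2 fold change -0.98, SE 0.18, edgeR adjusted p 0.00685), and was called in all 14 alternative analyses. Against control it was 1.61-fold lower without passing (log2 -0.69, SE 0.18, edgeR adjusted p 0.272). Of 15 other collagen chain genes Col5a3, a type V chain, rose in 3AP (log2 0.80, SE 0.19) and fell in PLX3AP against 3AP (log2 -0.93), and the list medians were -0.07 and -0.23. Of 24 tested genes for collagen processing, Sparc, a collagen-binding matrix protein, and P3h3, a prolyl hydroxylase family member, rose in 3AP (log2 0.51 and 0.40), and Serpinh1, the collagen chaperone HSP47, fell in PLX3AP against 3AP from 46.7 ± 6.13 to 29.4 ± 2.83 CPM (log2 -0.67, edgeR adjusted p 0.00388). The medians of that list were 0.08 and -0.13.

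The Col3a1 values depended on the unit. In the authors' TPM, Col3a1 was at 2.64, 2.48 and 2.42 in control, 5.12, 7.46 and 4.25 in 3AP, and 1.58, 2.23 and 3.26 in PLX3AP, so that the mean TPM rose 2.23-fold in 3AP where the count-based fold was 1.22. TPM divide each count by a transcript length estimated per library, and the count per TPM, set to the control mean, therefore shows the length that the TPM imply. For Col3a1 it was 103, 103 and 94.7% in the control libraries, 58.3, 55.2 and 58.9% in 3AP, and 85.4, 75.2 and 56.0% in PLX3AP. In 3AP its mean was 57.5% of control, and 0.0891% of 12349 genes with at least 50 counts and 1 TPM in every library lay as far from control. The count per TPM of Dcn, Lum, Aldh1a2, Islr and Col1a1 stayed at 99.7 to 100% of control in both treated groups as group means. GENCODE M21 lists 7 Col3a1 transcripts of 431 to 5564 bases, of which 3 are coding, and 1 transcript each for Aldh1a2 and Lum. Which Col3a1 transcripts carried the reads is not given by gene-level files, and limma-trend called Col3a1 higher in 3AP than in control on log2(TPM + 1) (log2 0.88, adjusted p 0.0492) and not on log2(TPM + 0.1).

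**Figure D3:**
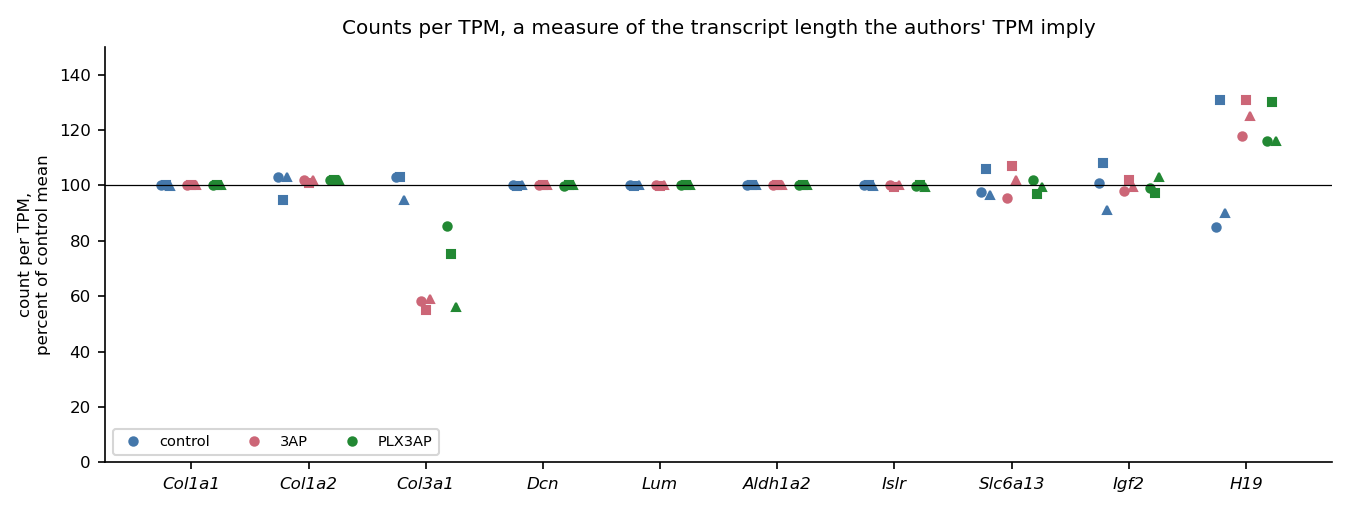
Deposited count divided by deposited TPM for each gene and library, as a percent of the control mean, with replicates 1, 2 and 3 as circle, square and triangle. Col3a1 in the 3AP libraries lies at 55.2 to 58.9%, H19 varies within control, and group means of the other genes are 99.4 to 102% of control.

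Among the proteoglycans, Dcn was at 27.1, 27.2 and 34.8 CPM in control, 98.2, 73.4 and 57.5 in 3AP, and 27.7, 21.8 and 25.5 in PLX3AP. The 3AP libraries stood above all others, and control and PLX3AP overlapped. Dcn was 2.57-fold higher in 3AP than in control (log2 fold change 1.36, SE 0.19, edgeR adjusted p 0.00244) and 3.06-fold lower in PLX3AP than in 3AP (log2 -1.61, SE 0.19, edgeR adjusted p 0.000929). Both calls held in all 14 alternative analyses, and PLX3AP against control gave -0.25 (SE 0.19, edgeR adjusted p 0.702). Lum was at 5.85, 5.19 and 7.99 CPM in control, 2.65, 4.48 and 3.10 in 3AP, and 8.13, 4.84 and 5.49 in PLX3AP. Its 3AP libraries were the lowest of all. The log2 fold change was -0.89 (SE 0.26, edgeR adjusted p 0.0775) in 3AP against control and 0.84 (SE 0.26, edgeR adjusted p 0.127) in PLX3AP against 3AP. The first passed with DESeq2 (adjusted p 0.0302) and both passed without a filter on low counts (0.0143 and 0.0298).

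The ratio of Dcn to Lum TPM showed the opposite movement in single libraries. It was 6.78, 7.68 and 6.36 in control, 54.2, 23.9 and 27.1 in 3AP, and 5.0, 6.6 and 6.79 in PLX3AP. The ratio was chosen after the values were seen and was not tested. Of 6 other small leucine-rich proteoglycan genes, Prelp rose in 3AP from 24.97 ± 5.42 to 41.3 ± 6.80 CPM (log2 0.72, edgeR adjusted p 0.0483). None of the 6 was called in PLX3AP against 3AP, where Bgn (log2 -0.34, adjusted p 0.336) and Omd (log2 -0.62, adjusted p 0.485) had the smallest p with edgeR. The medians of that list were 0.21 and -0.40.

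**Figure D4:**
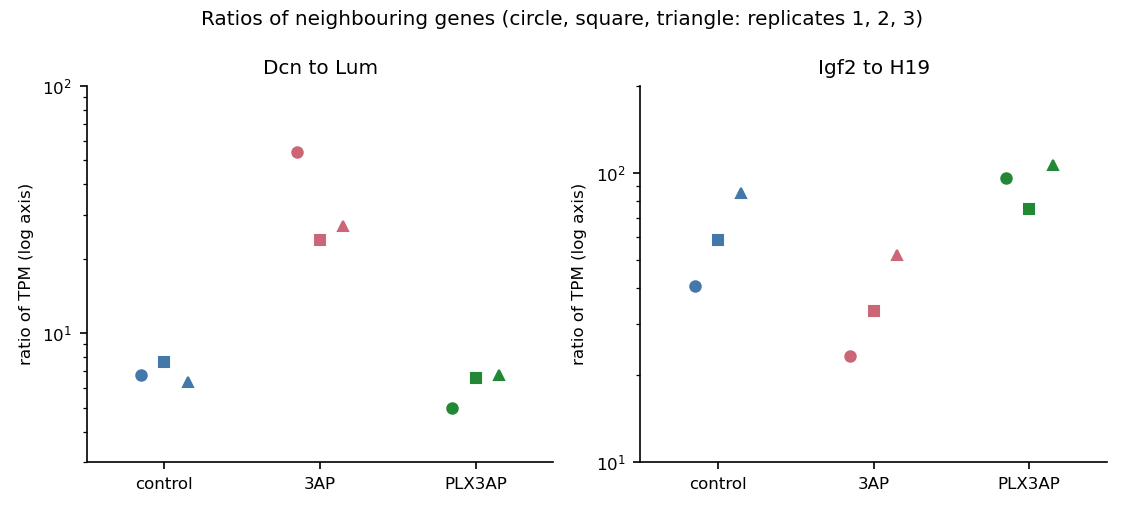
Ratio of Dcn to Lum TPM (left) and of Igf2 to H19 TPM (right) in each library by group, on log axes, with replicates 1, 2 and 3 as circle, square and triangle. The 3AP libraries lie at 23.9 to 54.2 for Dcn to Lum, above all others (5.0 to 7.68). For Igf2 to H19 control overlaps with both treated groups in this unit, and PLX3AP (75.0 to 107) lies above 3AP (23.4 to 52.3).

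Aldh1a2, the meningeal retinoic acid enzyme, was at 12.8, 13.9 and 14.9 CPM in control, 19.6, 22.2 and 16.5 in 3AP, and 13.3, 8.95 and 12.4 in PLX3AP. Every 3AP library was above every other. It was 1.69-fold lower in PLX3AP than in 3AP (log2 fold change -0.75, SE 0.16, edgeR adjusted p 0.0148), a call lost without 3AP replicate 1 (0.0634), 3AP replicate 2 (0.0802) or PLX3AP replicate 2 (0.0623). In 3AP against control the log2 fold change of 0.49 (SE 0.16, edgeR adjusted p 0.107) did not pass, except without a filter on low counts (0.0323). Among 12 tested genes of the retinoic acid pathway, Stra6, a membrane receptor that takes up retinol, went from 5.22 ± 2.26 CPM in control to 17.4 ± 4.91 in 3AP (log2 1.73, edgeR adjusted p 0.0219). It fell to 4.66 ± 1.40 in PLX3AP (log2 -1.90, edgeR adjusted p 0.016). Aldh1a1, another retinaldehyde dehydrogenase, rose in 3AP from 293 ± 11.02 to 359 ± 13.5 CPM (log2 0.29, edgeR adjusted p 0.0237). The list medians were 0.21 and -0.25.

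Islr was at 12.6, 15.5 and 19.01 CPM in control, 13.7, 18.6 and 16.0 in 3AP, and 11.9, 12.7 and 17.6 in PLX3AP. Its groups overlapped throughout, and its log2 fold changes of 0.04 (SE 0.18) in 3AP against control and -0.20 (SE 0.18) in PLX3AP against 3AP did not pass (edgeR adjusted p 0.951 and 0.763). Slc6a13, the GABA and taurine carrier, was at 9.19, 10.3 and 12.97 CPM in control, 12.7, 13.4 and 12.6 in 3AP, and 11.1, 10.6 and 15.8 in PLX3AP. Its groups overlapped as well, with log2 fold changes of 0.25 (SE 0.17) and -0.05 (SE 0.17, both with an edgeR adjusted p of 0.51 or more). Of the 4 related transporter genes edgeR called 0 in either comparison. Slc6a6, the taurine transporter, came closest in 3AP (log2 0.27, adjusted p 0.121), before Slc6a12 (log2 0.43, adjusted p 0.377), and in PLX3AP against 3AP Slc6a6 had a log2 fold change of -0.14 (adjusted p 0.61).

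Igf2 was at 107, 119 and 211 CPM in control, 110.4, 155 and 112 in 3AP, and 147, 99.2 and 160.5 in PLX3AP. Groups overlapped fully, control replicate 3 was the highest library, and the log2 fold changes of -0.21 (SE 0.31) in 3AP against control and 0.11 (SE 0.31) in PLX3AP against 3AP did not pass (edgeR adjusted p 0.799 and 0.933). The summed choroid plexus genes are given beside it. Control replicate 3, highest in Igf2, had 5400 CPM of them, and PLX3AP replicate 2, lowest in Igf2, had 208.7. The sums were 2657, 2703 and 2913 CPM in PLX3AP replicate 3, 3AP replicate 2 and PLX3AP replicate 1, which came next in Igf2. In control replicates 1 and 2 they were 335.8 and 630.0, and in 3AP replicates 1 and 3 they were 1401 and 958.3. The part of choroid plexus in the Igf2 level was not tested. Leaving out control replicate 3 turned the 3AP against control value to 0.16 (edgeR adjusted p 0.793).

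**Figure D5:**
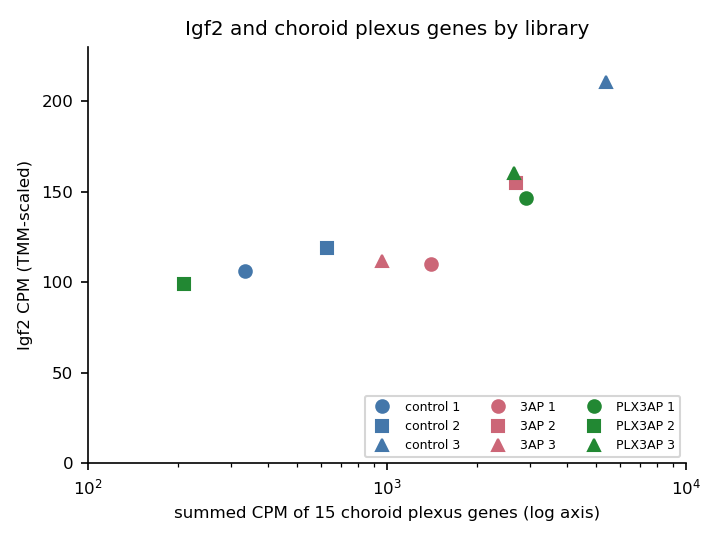
Igf2 CPM against the summed CPM of 15 choroid plexus genes (log axis) in each of the 9 libraries, coloured by group. PLX3AP replicate 2 is lowest on both axes (99.2 and 208.7 CPM) and control replicate 3 highest on both (211 and 5400 CPM).

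H19, the imprinted neighbour, was at 1.62, 1.80 and 1.80 CPM in control, 4.17, 4.38 and 1.99 in 3AP, and 1.32, 1.31 and 1.24 in PLX3AP. Its 3AP replicate 3 lay close to control, with 41 counts, while 3AP replicates 1 and 2 had 85 and 90. H19 was 2.72-fold lower in PLX3AP than in 3AP (log2 fold change -1.44, SE 0.30, edgeR adjusted p 0.0159). That call was lost without 3AP replicate 1 (0.0858), 3AP replicate 2 (0.0796), PLX3AP replicate 2 (0.0669) or PLX3AP replicate 3 (0.0693), and with limma-trend on TPM (0.0635 and 0.0574). In 3AP against control H19 had a log2 fold change of 1.01 (SE 0.29, edgeR adjusted p 0.0773), which passed without 3AP replicate 3 (log2 1.30, adjusted p 0.00793) and without a filter on low counts (log2 1.01, adjusted p 0.0468). The ratio of Igf2 to H19 TPM was 40.7, 58.9 and 85.3 in control, 23.4, 33.5 and 52.3 in 3AP, and 95.8, 75.0 and 107 in PLX3AP. In TPM control overlapped with both treated groups, and every PLX3AP library was above every 3AP library. The overlap with 3AP depended on the unit, since in CPM the ratio of every control library was above that of every 3AP library. The count per TPM of H19 was 85.0, 131 and 90.1% of the control mean in control and 118, 131 and 125% in 3AP.

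Other genes of the same pathways gave a context for Igf2 and H19. Of 11 tested genes of the insulin-like growth factor system, the binding protein genes Igfbp7 and Igfbp4 rose in 3AP (log2 1.12 and 0.59) and fell in PLX3AP against 3AP (log2 -1.46 and -0.99, edgeR adjusted p 0.00057 and 0.00144). Igfbp7 was at 21.7 ± 6.39 CPM in control, 47.1 ± 5.47 in 3AP and 17.1 ± 1.25 in PLX3AP. Of 12 tested imprinted genes edgeR called 0 in either comparison, and the medians were 0.03 and -0.07. Mest (log2 -0.20, adjusted p 0.395) and Ndn (log2 -0.23, adjusted p 0.48) had the smallest p in 3AP against control, and Zim1 (log2 -0.57, adjusted p 0.434) and Plagl1 (log2 -0.25, adjusted p 0.444) in PLX3AP against 3AP.

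Of 23 further tested markers of meningeal fibroblasts, Apod, a lipid-binding lipocalin, Serping1, the C1 inhibitor, and Itih2, a hyaluronan-binding protein chain, rose in 3AP, and these and Gjb2, a gap junction protein, fell in PLX3AP against 3AP. Apod went from 276 ± 33.4 to 832 ± 107 and 366 ± 43.8 CPM in control, 3AP and PLX3AP (log2 1.59 and -1.18), and Serping1 from 14.97 ± 2.79 to 40.1 ± 7.72 and 19.4 ± 2.82 (log2 1.42 and -1.04). All 4 of these Apod and Serping1 calls held in every alternative analysis run. Of 15 other fibroblast matrix genes Fbln5, an elastic fibre protein, rose from 10.1 ± 2.46 to 50.2 ± 13.2 CPM (log2 2.31, edgeR adjusted p 0.00112) and fell to 17.1 ± 4.12 in PLX3AP (log2 -1.55, edgeR adjusted p 0.00887), a call lost without a filter on low counts (0.0606). The list medians were 0.15 and -0.23 for the markers and 0.35 and -0.23 for the matrix genes. Several of these genes are also made by astrocytes, vessels or oligodendrocytes, and the cell type behind each was not measured.

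Some calls from these lists rested on single libraries or settings. In 3AP against control the calls of Col5a3, Prelp, Sparc, P3h3, Itih2, Aldh1a1, Stra6 and Igfbp4 were lost without control replicate 2 (edgeR adjusted p 0.0721 to 0.157). Without control replicate 1 these calls were lost except that of Stra6 (0.0943 to 0.185), and without 3AP replicate 1 except that of P3h3 (0.0809 to 0.135). Without 3AP replicate 2 they were lost except that of Aldh1a1 (0.0693 to 0.156). Col5a3, Sparc and P3h3 were also lost without control replicate 3 (0.0653 to 0.107), and P3h3 without 3AP replicate 3 (0.117). In PLX3AP against 3AP the calls of Col5a3, Itih2, Stra6 and Gjb2 were lost without 3AP replicate 1 (0.0615 to 0.154) or 3AP replicate 2 (0.0552 to 0.129). Itih2, Stra6 and Gjb2 were lost without PLX3AP replicate 1 (0.0552 to 0.0872) or PLX3AP replicate 2 (0.0715 to 0.134). Col5a3, Itih2 and Gjb2 were lost without PLX3AP replicate 3 (0.059 to 0.076), and Itih2 without 3AP replicate 3 (0.0502). Without a filter on low counts the calls of Stra6 were lost in both comparisons (0.099 and 0.0933) and that of Prelp in 3AP against control (0.109), which was also lost with RLE size factors (0.0511). Limma-trend on log2(TPM + 0.1) and on log2(TPM + 1) did not call Col5a3 (0.161 and 0.0995) or P3h3 (0.185 and 0.184) in 3AP against control. Nor did it call Col5a3 (0.18 and 0.0998), Itih2 (0.0769 and 0.0633) or Gjb2 (0.0805 and 0.0781) in PLX3AP against 3AP. P3h3 was also lost when only control and 3AP were fitted (0.0577).

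Markers of other cell types moved in the same comparisons, and their part in the changes of Dcn, Col1a1, Col3a1, Aldh1a2 and H19 was not tested. Of 8 microglia genes 6 rose in 3AP and 7 fell in PLX3AP against 3AP, with sums of 149.4 to 162.6 CPM in control, 284.8 to 343.6 in 3AP and 87.4 to 132.2 in PLX3AP. Of 8 tested border macrophage genes 3 rose and 8 fell, with sums of 24.2 to 26.8, 39.4 to 42.1 and 3.73 to 6.97 CPM. Endothelial genes rose in 6 of 12 cases, with 1 lower, and fell in 5 of 12, with sums of 451.6 to 495, 511.9 to 539.4 and 406.8 to 469.6 CPM. Of 14 mural cell genes, which mark the other collagen-making cells of vessels, edgeR called 0 in each comparison, and their sums were 318.8 to 353.9, 280.7 to 320.9 and 302.6 to 317.3 CPM. Pdgfrb (log2 0.32, adjusted p 0.155) and Rgs5 (log2 -0.54, adjusted p 0.197, but 0.031 with DESeq2) had the smallest p among them in 3AP against control, and Notch3 (log2 0.26, adjusted p 0.274) and Myh11 (log2 0.28, adjusted p 0.317) in PLX3AP against 3AP. PLX3AP against control, where edgeR called 0 genes of every pathway list, gave 5 of 8 border macrophage genes lower and none of the microglia or endothelial genes. Of 15 choroid plexus and 5 erythroid genes edgeR called 0 in each comparison, and no gene of these lists was at 0 in all libraries.

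Single libraries differed across several of the 10 genes at once. Control replicate 3 was the highest control library for 8 of the 10 genes, and control replicate 1 the lowest for 8. In 3AP, replicate 2 was the highest for 9 genes and replicate 3 the lowest for 7. In PLX3AP, replicate 3 was the highest for 6 genes and replicate 2 the lowest for 5, while replicate 1 was the highest for 4 and the lowest for 4. Control replicate 3 and 3AP replicate 2 also had the most choroid plexus transcripts of their groups, and in PLX3AP that was replicate 1. The exception in 3AP was Dcn, which was highest in replicate 1.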

How the data were processed

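Gene expression was measured in 9 mouse cerebellum libraries in 3 groups of 3, grouped by their titles. The authors deposited expected counts per gene (estimated reads, not normalised) and TPM (abundances that the authors scaled by length and depth), 55808 rows per file. Per the submitters' processing notes fastp, HISAT2, StringTie and RSEM were used with the mm10 build, while the sources used here give no versions, annotation or strandedness. Rows with no gene name (1884, holding 0.526 to 0.66% of the counts) were left out.

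Expected counts were rounded. EdgeR 4.0.16 (R 4.3.3) was then run with its filterByExpr filter, TMM (factors 0.986 to 1.02), a robust quasi-likelihood fit with 1 term per group over all 9 libraries, and two-sided tests adjusted by Benjamini-Hochberg over 16634 genes, called under 0.05. The standard error is the log2 fold change over the square root of F. Alternatives were DESeq2 1.42.0, limma-trend (limma 3.58.1) on log2 TPM, other filters and scaling, and leaving out each library. The code was checked on simulated data. No library was a copy of another of its group, since counts within a group differed beyond Poisson noise, at 4.83 to 28.6 chi-square units for each degree of freedom. Libraries of different groups were not compared in this way. Counts per TPM were divided by a factor per library, the median over genes with at least 50 counts and 1 TPM in every library.

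The 10 genes and the pathway lists were chosen with earlier results of these data known. Named were all 10 genes, up to 4 called genes per pathway list and comparison by smallest p, or 2 where none was called, and for PLX3AP against control and lists of other cell types mostly counts alone. Of these, 1 gene is not reported here.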

Additional observations from a re-analysis of the deposited data

How the results depend on the processing

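Of 420 recomputed log2 fold changes of the 10 genes, 385 kept their direction and their side of the threshold, 15 lost a call, 7 gained one and 13 changed sign without passing the threshold. Dcn in both comparisons with 3AP and Col3a1 in PLX3AP against 3AP were called in all 14 alternatives each. In 3AP against control, 1 of the 10 genes was called, and the count was 2 with DESeq2, 4 without a filter on low counts, 2 with limma-trend on log2(TPM + 1), and 1 to 2 when single libraries were left out. In PLX3AP against 3AP, 5 were called, and the count was 3 with limma-trend on log2(TPM + 0.1), 3 on log2(TPM + 1), and 2 to 5 when single libraries were left out. In PLX3AP against control the count was 0 in every alternative. The cause of these shifts was not tested. All genes gave 1062 calls with DESeq2, 991 without a filter and 585 with limma-trend on log2(TPM + 1) in 3AP against control. In PLX3AP against 3AP they gave 451 with limma-trend on log2(TPM + 0.1) and 495 on log2(TPM + 1). Over all genes, the 820 calls of the first comparison became 466 to 798 with a library left out, the 621 of the second 401 to 715, and the 20 of the third 7 to 153, 110 with DESeq2, 71 without a filter, 9 with limma-trend on log2(TPM + 1) and 10 with the replicate block.

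Values that changed sign did so mostly when 1 library was left out. In 3AP against control, leaving out single libraries gave -0.099 (without control replicate 1) to 0.194 for Islr, with -0.083 without 3AP replicate 2, and -0.389 to 0.158 (without control replicate 3) for Igf2. Calml4, a choroid plexus gene, ran from -0.979 to 0.689 (without control replicate 3). In PLX3AP against 3AP, Slc6a13 ran from -0.255 to 0.058 (without PLX3AP replicate 2; 0.024 without PLX3AP replicate 1) and Igf2 from -0.033 (without PLX3AP replicate 3) to 0.283. Sostdc1, also of choroid plexus, was at -0.172 with limma-trend on log2(TPM + 0.1). In PLX3AP against control, Lum ran from -0.308 to 0.151 (without control replicate 3; 0.096 and 0.023 without PLX3AP replicates 2 and 3) and Igf2 from -0.291 to 0.266 (without control replicate 3; 0.076 without PLX3AP replicate 2). Col1a2 ran from -0.284 to 0.026 (without PLX3AP replicate 1) and Slc6a13 from -0.003 (without PLX3AP replicate 3) to 0.358.

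Groups share replicate numbers in the titles, which do not say whether the numbers pair the samples. Deviations from the group means correlated across genes at -0.255 to 0.12 for same-numbered libraries and -0.144 to 0.314 for others. Deviations from means of 3 libraries cannot settle whether samples were paired. With the replicate number as a block, 1, 5 and 0 of the 10 genes were called in the 3 comparisons, against 580, 504 and 10 over all genes. In 3AP against control the block also ended the calls of Aldh1a1, Col5a3, Igfbp4, P3h3, Prelp, Sparc and Stra6 (adjusted p 0.0521 to 0.084). H19 had 24 to 90 counts a library and Lum 54 to 164, the fewest of the 10 genes by their sum over all libraries.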

Other observations

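The genes whose log2 CPM followed the mean standardised level of the 10 genes most closely over the 9 libraries, among tested genes with a mean of 1 CPM or more, were Nupr1 (Pearson r 0.953), Notch2 (0.943), Hic1 (0.934), Bmp7 (0.931), Tmem88 (0.927), Tbx1 (0.923), Plod3 (0.922) and Fbln1 (0.922). Plod3 is a lysyl hydroxylase of collagen chains, Fbln1 a matrix glycoprotein and Bmp7 a signalling protein made in the meninges. Closest to Igf2 alone were Galm (0.977), Ecrg4 (0.966), a secreted peptide precursor of choroid plexus that ran from 4.72 to 51.2 CPM, and Barhl2 (0.955). Closest to Slc6a13 were Sox12 (0.916), Ppp1ccb (0.915) and Ssc5d (0.913). These are descriptions over libraries that share depth and group, picked as the highest among all genes compared, and were given no test. A function is named for some of these genes only, and no list as a whole was assigned to a cell type.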
